A study of Mus musculus with 9 samples.

Results

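Liver circRNAs after ischemic postconditioning (IPO) were set against those of normal (N) liver on 6 of the 9 arrays of the series, 3 in each group, and the 3 arrays of the ischemia/reperfusion (I/R) group were left out. The probes described are the 11519 of 14236 circRNA probes (80.9%) whose spot the scanner software flagged as well above background on all 6 arrays. Each array came from the liver of a male mouse, labelled as 8 weeks old and, per the methods, of the C57BL/6 strain. The N group, which the labels name as control and the series as sham, was opened at laparotomy with no vessel blocked. The IPO group had I/R, with 3 cycles (5 s of ischemia, then 5 s with flow restored) ahead of the reperfusion phase. The labels state an ischemia of 1 h and a reperfusion of 4 h for the I/R group and repeat no duration for the IPO group. No group had the short cycles without I/R, so the effect of the cycles alone cannot be told apart here.

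CircRNAs are closed loops left when the spliceosome joins the end of an exon back to the start of the same or an earlier one. Having no free end they resist exonucleases such as RNase R, which was used here to digest linear RNA before labelling, and they tend to be turned over slowly. In postconditioned liver, blood flow is returned in brief interrupted bursts after a period without flow, a procedure known for limiting reperfusion damage. The files give probe numbers (ASCRP) with no circRNA name, host gene or sequence, so the liver label could not be checked against marker genes. In bulk tissue, fewer cells of a type and less RNA per cell cannot be told apart.

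The groups overlapped in detection and in signal strength. The number of circRNA probes flagged as well above background was 12097 to 12661 on an N array and 12256 to 12504 on an IPO array (two-sided exact permutation p = 0.8, where 0.1 is the smallest p that 3 against 3 arrays allow). The median intensity after background correction was 37.2, 26.5 and 37.9 on N 1, N 2 and N 3 and 30.9, 37.8 and 39.3 on IPO 1, IPO 2 and IPO 3 (exact permutation p = 0.6). The 3 N arrays, IPO 1 and IPO 2 shared a scan, and IPO 3 was scanned alone. The header entry that reads as a row and column position starts with 1 on every N array and with 2 on every IPO array, so group and this position cannot be told apart. Log2 signals were quantile normalized over the 6 arrays, and every value below is on that scale unless said otherwise.

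The mean distance between a postconditioned and a normal liver lay between the mean distances within the groups. Over the 11519 probes, the median absolute log2 difference between the group means was 0.19, or 1.14-fold, and 9 in 10 probes differed by less than 0.52, or 1.44-fold. A pair of N arrays differed by a median of 0.24 to 0.33 (mean 0.29, 3 pairs), and a pair of IPO arrays by 0.31 to 0.39 (mean 0.35, 3 pairs). Pairs of an N and an IPO array differed by 0.25 to 0.41 (mean 0.32, 9 pairs), and the farthest of them, N 2 and IPO 3, exceeded every pair within a group. The share of probes at least 2-fold apart was 2.47% to 8.39% for N pairs, 6.34% to 7.80% for IPO pairs and 4.08% to 13.5% for mixed pairs. As a further description, the mean square of the IPO minus N difference was 0.971 times the value that the variances within the groups give for means of 3 arrays. Probes on an array share its deviations, so no test was made over probes.

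**Figure D1:**
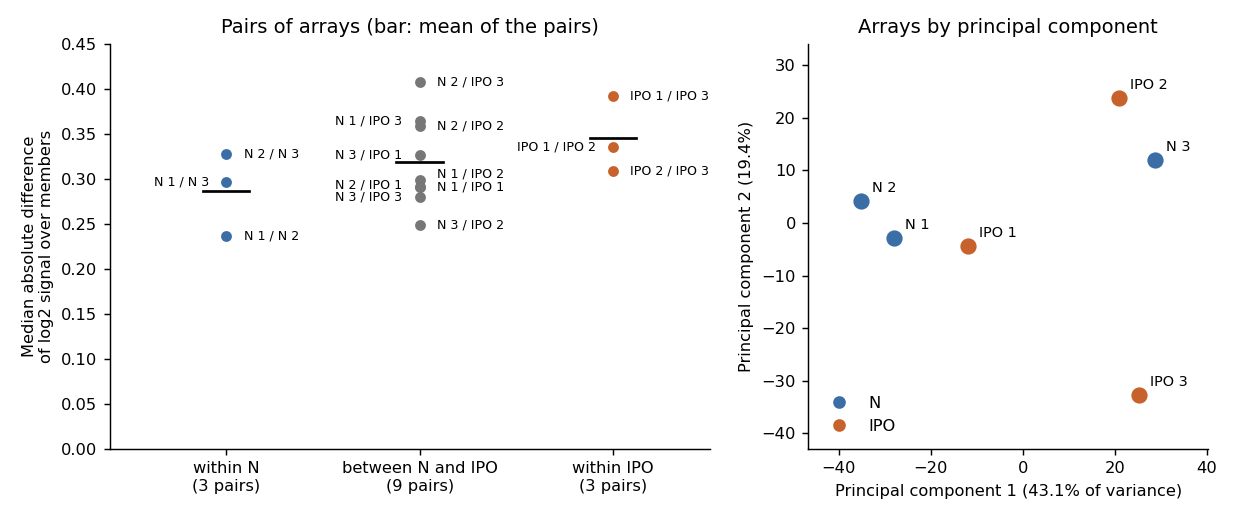
Left, the median absolute difference in log2 signal over 11519 circRNA probes for each of the 15 pairs of arrays (points, named) with the mean of each kind of pair (bars). Right, the 6 arrays by their first principal components, where N 3 lies on the side of IPO 2 and IPO 3, and IPO 1 on the side of N 1 and N 2.

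The arrays did not divide by treatment along the axis of largest variation. The first principal component held 43.1% of the variance and placed N 2, N 1 and IPO 1 at -35.1, -28.0 and -11.9, and IPO 2, IPO 3 and N 3 at 21.0, 25.3 and 28.8. The closest mixed pair, N 3 and IPO 2 at 0.25, was closer than N 3 was to N 1 (0.30) or to N 2 (0.33), and N 3 and IPO 3 stood at 0.28. IPO 1 was at 0.29 from N 1 and from N 2, closer than to IPO 2 (0.34) or IPO 3 (0.39). The 3 arrays on the N 3 side also had the highest median intensities, 37.8 to 39.3 against 26.5 to 37.2, and the part of signal strength in this arrangement was not tested. N 1, N 2, N 3, IPO 1 and IPO 2 were in the shared scan, and the part of the scan was not tested.

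Probes that set N 3 apart within its own group lay to the same side on the postconditioned arrays. On N 3, 341 probes were at least 2-fold below both N 1 and N 2, a choice that used no IPO array. Against the mean of N 1 and N 2 these probes had a median log2 difference of -1.97 on N 3, and of -0.61, -1.37 and -1.34 on IPO 1, IPO 2 and IPO 3. On IPO 1, IPO 2 and IPO 3, 317, 324 and 333 of the 341 lay below that mean. The opposite set, 186 probes at least 2-fold higher on N 3, had medians of 1.36 on N 3 and of 0.49, 0.97 and 0.97 on the IPO arrays. The sets were formed after the arrangement of the arrays had been seen, and the mean of N 1 and N 2 enters every one of these differences, so they carry no test. Bright probes were common in them, with 136 of the 341 and 74 of the 186 among the probes of the brightest abundance class, which is defined next.

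Probes were divided into 5 abundance classes of equal size by their mean signal over the 6 arrays, a mean that favours neither group. Class 1 ran from 2.63 to 4.27 on the log2 scale, class 2 to 5.20, class 3 to 6.11, class 4 to 7.33 and class 5 to 18.1. Probes bind with different strength, so a class ranks brightness and not the number of molecules. The median signed difference, IPO minus N, was -0.02, -0.02, -0.01, -0.01 and -0.003 from class 1 to class 5, and quantile normalization holds such medians near 0. The median absolute difference was 0.21, 0.19, 0.19, 0.19 and 0.20. Without background correction it rose with brightness, from 0.09 in class 1 to 0.19 in class 5. The median SD between single arrays of a group, which a difference of means of 3 arrays falls below even where nothing differs, ran from 0.23 in class 4 to 0.28 in class 1 for N and from 0.28 in classes 3 and 4 to 0.32 in class 1 for IPO.

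Pairs of single arrays gave the same order in every class. From class 1 to class 5 the mean over the pairs of the median absolute difference was 0.32, 0.29, 0.27, 0.27 and 0.30 within N, 0.34, 0.31, 0.30, 0.30 and 0.34 between N and IPO, and 0.36, 0.34, 0.32, 0.33 and 0.38 within IPO. The postconditioned livers thus differed more among themselves than from the normal livers by this measure, by less than the SD of 0.05 over the 9 mixed pairs when all probes were taken. The spread of the IPO arrays was the larger of the pair in 57.7% of the probes. The brightest class held the probes of most uneven signal. There the 90th percentile of the SD was 0.72 in N and 0.70 in IPO, against 0.52 and 0.55 in class 3. An SD over 1 occurred in N for 138 probes of class 5 and 19 of class 1. Over all classes 281 probes passed that SD in N, and in 243 of them N 3 was the array farthest from the group's median, 211 times on the low side. Among the 168 probes with an SD over 1 in IPO the farthest array was IPO 1 for 40, IPO 2 for 72 and IPO 3 for 56. The mean square of IPO minus N relative to that given by the variances within the groups was 1.1, 1.1, 1.05, 1.00 and 0.762 from class 1 to class 5.

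Spread within an array was measured on repeated spots of other probes, which need not match that of circRNA probes. The arrays carry 94 other non-control probes printed 10 times each, of which 66 were well above background at every spot. The median SD between spots of a probe on an array was 0.17, and the median SD between arrays of the mean over those spots was 0.20 in N and 0.22 in IPO. Each circRNA probe has a single spot, so its SD between arrays holds both parts. By the signal range of classes 1 to 5, which held 7, 17, 4, 17 and 21 of these probes, the median spot SD was 0.18, 0.21, 0.38, 0.14 and 0.13. For the 4 in the range of class 3 it was above their median SD between arrays, 0.24 in N and 0.31 in IPO.

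The limits on any remaining difference were taken from limma, as the 95% confidence interval of IPO minus N for each probe. The interval extended to either side of the estimate by a median of 0.56, or 1.47-fold, and by 0.83, or 1.78-fold, at the 90th percentile. For 8711 probes (75.6%) the whole interval lay within a 2-fold change in either direction, and for 1860 (16.1%) within a 1.5-fold change. For 2748 probes (23.9%) the interval reached 2-fold and the probe was not called, so that for these neither a likeness nor a 2-fold difference was measured. By contrast the estimate itself was under 1.5-fold for 92.7% of the probes. Fits without an array met the narrower limit for fewer probes. The counts were 111 without N 1, 201 without N 2, 376 without N 3, 999 without IPO 1, 489 without IPO 2 and 938 without IPO 3. Such fits widen even the narrowest intervals. At ASCRP4006710, which has the same value on every array, the reach was 0.41 on all arrays. It was 0.45 without IPO 1 and 0.55 without N 1, against a limit of 0.585. These counts therefore do not show the part of a single array's values. The shares also rest on the intensity after background correction. Without background correction 60.2% of the intervals lay within 1.5-fold, and after normexp correction 78.7%. Those settings keep background in the signal or add an offset to it, which draws values together. When both the normalization and the fit took in all 9 arrays, the share within 2-fold was 31.5%. The parts of the normalization and of the fit in that drop were not tested.

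By abundance class, the share with an interval inside 2-fold was 74.0%, 78.5%, 78.6%, 77.8% and 69.2% from the dimmest to the brightest. The share inside 1.5-fold was lowest in class 1 at 10.03% and highest in class 4 at 20.8%. The median reach of the interval to either side was 0.58, 0.56, 0.55 and 0.54 from class 1 to class 4, but its 90th percentile was 0.79, 0.80, 0.77 and 0.83, so the widest intervals did not narrow. Class 5 had a median of 0.57, with 16.1% inside 1.5-fold, and held the largest share of unresolved probes, 30.1%. Intervals there extended by 1.00 at the 90th percentile. With an intensity trend in the variance the shares inside 2-fold were 72.7% in class 1 and 68.1% in class 5. Under scaling by the 75th percentile they were 71.7% and 68.4%. Without background correction the order differed, falling from 99.6% in class 1 to 73.5% in class 5.

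**Figure D2:**
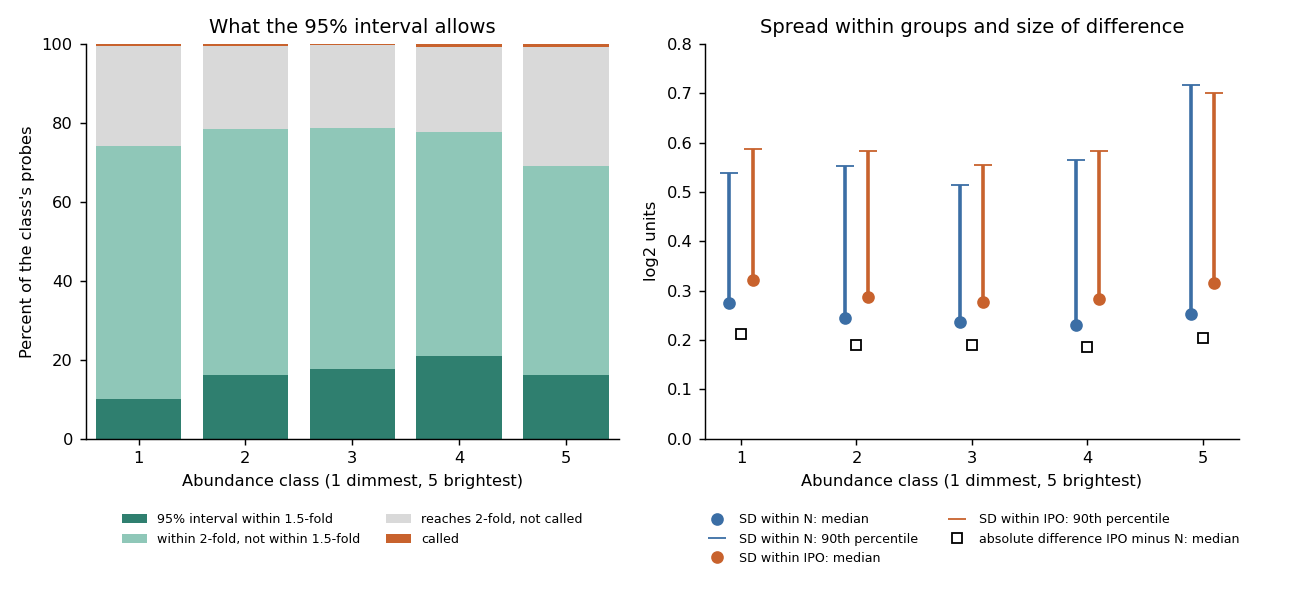
Left, the percent of probes in each abundance class whose 95% interval of IPO minus N lies within 1.5-fold (10.03% to 20.8%), within 2-fold, or reaches 2-fold, with the called probes on top. Right, the median and 90th percentile of the SD of log2 signal within the N and IPO groups and the median absolute difference between the groups (squares, 0.19 to 0.21).

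Probes were called where the means differed 2-fold or more and limma gave an unadjusted p below 0.05. By this rule 46 probes were higher in IPO (0.399% of the 11519 tested) and 14 were lower (0.122%), together 0.521%. The higher probes made up 76.7% of the calls, and 88.6% when the normalization and the fit took in all 9 arrays. This direction was not stable, since the higher probes were 53.8% of the calls with array weights (99 higher, 85 lower) and 39.8% without N 3 (163 higher, 247 lower). An unmoderated comparison by the methods' t-test, which the methods name for data other than the arrays, gave 30 higher and 3 lower. An unadjusted p below 0.05 at any fold was reached by 552 probes (4.79%), and 492 of them differed by less than 2-fold. After Benjamini-Hochberg adjustment no probe had an adjusted p below 0.05 with limma, nor with the methods' t-test, which gave 553 unadjusted p-values below 0.05. The lowest adjusted p in limma was 0.809. At the median standard error a single probe would have needed a 5.62-fold difference to pass the adjustment alone, from 5.31-fold in class 4 to 6.07-fold in class 1. All 3 IPO values lay above all 3 N values for 569 probes (4.94%) and below them for 569 (4.94%). Quantile normalization holds the directions near balance. Calls were spread over the classes, with 9, 9, 4, 11 and 13 higher and 4, 2, 1, 4 and 3 lower from class 1 to class 5. Without background correction class 1 had no call and class 5 had 11 higher and 3 lower.

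**Figure D3:**
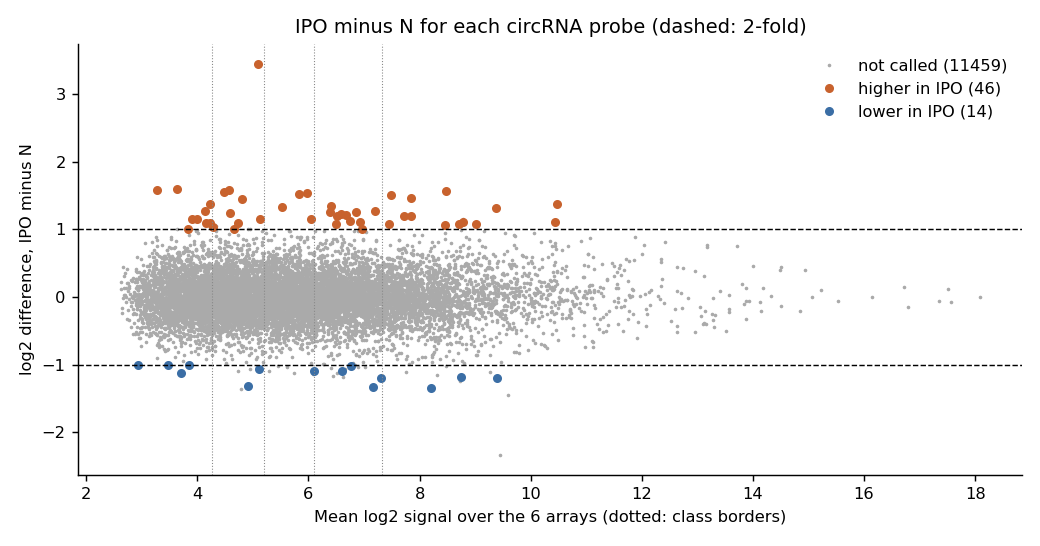
IPO minus N log2 difference of each of the 11519 circRNA probes against its mean log2 signal over the 6 arrays, with the 46 probes called higher and the 14 called lower in colour. On this background-corrected scale 9 in 10 probes lie within 0.52 of 0 in class 1 and within 0.59 in class 5, and the single probe beyond 4-fold among the calls stands at 3.45.

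The called probes held differences of about 2-fold. The median was 2.31-fold for the higher and 2.15-fold for the lower probes, and 36 and 8 of them had groups that did not overlap. The largest was at ASCRP4002097 in class 2, with N values of 2.49, 4.30 and 3.33 and IPO values of 6.26, 8.47 and 5.75. Its log2 difference was 3.45 (95% interval 1.87 to 5.03), a 10.9-fold higher mean, and its replicates varied widely in both groups (SD 0.90 in N and 1.45 in IPO, n = 3 each). The log2 difference was 2.62 without IPO 2, 2.20 without background correction and 1.39 after normexp correction, and the probe was called in each.

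ASCRP4013784 was the largest increase of class 1, chosen among called probes whose groups did not overlap, with 2.596, 2.89 and 3.03 in N and 4.53, 4.77 and 3.99 in IPO. Its log2 difference was 1.59 (95% interval 1.01 to 2.17). It and ASCRP4002097 were the 2 probes whose whole interval lay beyond 2-fold. Both are dim in N, and at ASCRP4013784 the log2 difference was 0.63 without background correction and 0.33 after normexp correction, both under 2-fold. With all 9 arrays it was 1.49 and the call was lost (unadjusted p = 0.0894 from limma).

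Among brighter probes, ASCRP4012555 (class 3) read 5.27, 5.25 and 5.10 in N and 7.71, 5.62 and 6.90 in IPO. The N arrays nearly coincided there and IPO 2 lay close above them, so the difference of 1.54 had a wide interval, 0.50 to 2.57. Its call was lost with all 9 arrays (1.60, unadjusted p = 0.175 from limma), by the methods' t-test (unadjusted p = 0.0655) and after normexp correction, where the difference was 0.89. ASCRP4008725 (class 4) read 6.38, 6.23 and 7.07 in N and 7.53, 7.83 and 8.15 in IPO, a difference of 1.27 (0.64 to 1.91) that was 0.87 after normexp correction, under 2-fold. ASCRP4003673 (class 5) read 7.21, 7.48 and 8.37 in N and 9.70, 8.83 and 9.23 in IPO, a difference of 1.57 (0.78 to 2.35). N 3 was the highest N array for both of these and stood nearest to the IPO values.

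Among probes called lower with groups that did not overlap, the largest decrease of a class ran from -1.01 to -1.32. In class 1, ASCRP4003847 read 3.72, 3.81 and 2.77 in N and 2.43, 2.53 and 2.31 in IPO, a difference of -1.01 (95% interval -1.68 to -0.34), with N 3 next to the IPO values. It was -0.28 without background correction and -0.13 after normexp correction, which ended the call. Leaving out N 1 (-0.87), N 2 (-0.83) or IPO 3 (-0.94) also ended it. So did taking in all 9 arrays (-0.88). Fitting the scan as a block (-0.95) ended it too, but IPO 3 was scanned alone, so that is nearly the fit without IPO 3. In class 3, ASCRP4003626 read 6.41, 6.80 and 6.73 in N and 6.32, 5.41 and 4.92 in IPO, a difference of -1.096 (-1.88 to -0.32). IPO 1 lay just under N 1 there, so the separation rested on IPO 2 and IPO 3. The difference was -0.78 without IPO 3 and -0.78 with the scan as a block, which is nearly the same fit. It was -0.90 without background correction and -0.62 after normexp correction, and all of these are under 2-fold. In class 4, ASCRP4006192 read 7.22, 7.56 and 8.67 in N and 6.44, 7.03 and 6.01 in IPO, a difference of -1.32 (-2.24 to -0.41), which was -0.90 without N 3, -0.95 with array weights and -0.95 after normexp correction. In class 5, ASCRP4011090 read 10.27, 9.74 and 9.997 in N and 9.12, 8.60 and 8.68 in IPO, a difference of -1.20 (-1.74 to -0.66), with an SD of 0.27 in N and 0.28 in IPO (n = 3 each). Its call was lost with all 9 arrays (-1.26, unadjusted p = 0.0548 from limma). The methods' t-test gave neither ASCRP4003626 nor ASCRP4006192 an unadjusted p below 0.05. Class 2 had no probe called lower with groups that did not overlap. For the 9 probes named by class the adjusted p from limma was 0.809 to 0.888, so none passed the adjustment.

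**Figure D4:**
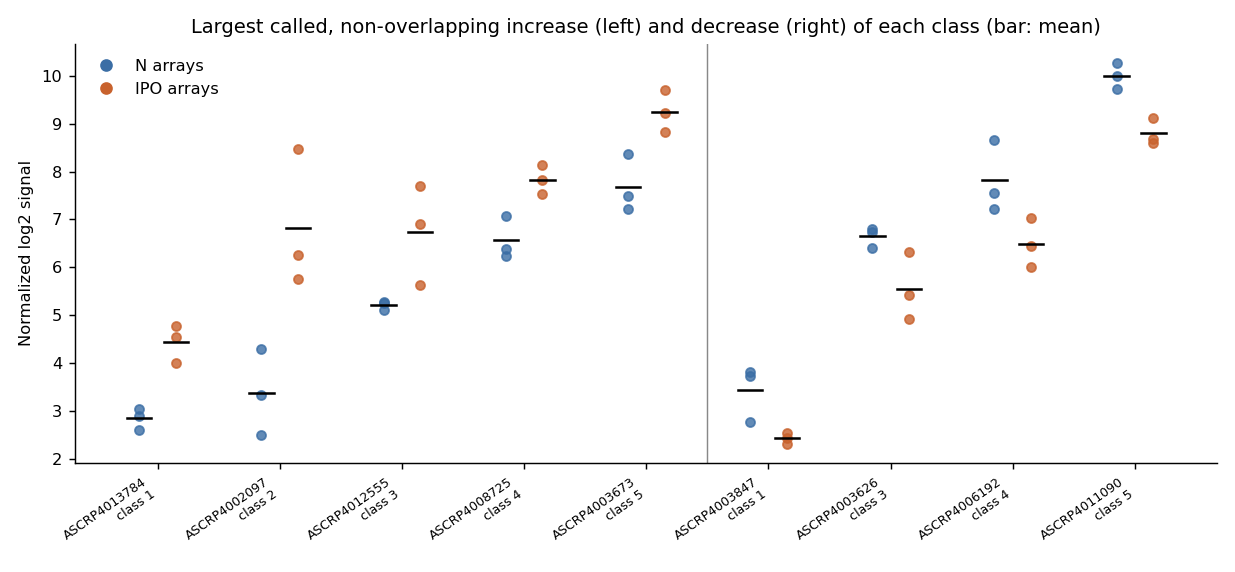
Normalized log2 signal of the largest increase and decrease of each abundance class among called probes whose groups do not overlap (class 2 had no such decrease), with each N and IPO array as a point and the group mean as a bar. Lack of overlap was part of the choice of these 9 probes, and single arrays such as N 3 at ASCRP4003847 or IPO 1 at ASCRP4003626 sit next to the other group.

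A larger mean difference went uncalled where 1 array decided it. ASCRP4007684 (class 5), chosen after its values were seen, read 10.34, 10.47 and 11.05 in N and 9.62, 5.18 and 10.05 in IPO. Its log2 difference of -2.34 had an interval of -4.80 to 0.13 (unadjusted p = 0.0607 from limma, adjusted p = 0.888), and the low value was on IPO 2. Altogether 85 probes (0.738%) had group means at least 2-fold apart, 25 of them with an unadjusted p of 0.05 or above.

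Likeness was measured most firmly where replicates nearly coincided. ASCRP4013218 in class 1 read 3.91, 4.00 and 3.83 in N and 3.95, 3.85 and 3.90 in IPO, and its interval, -0.44 to 0.41, reached no further than 1.36-fold. ASCRP4012183 (class 2) had a difference of 0.02 with an interval of -0.40 to 0.44. ASCRP4010087 (class 3) had means of 5.67 in both groups (SD 0.05 in N and 0.06 in IPO, n = 3 each), and its interval reached 1.34-fold. ASCRP4005840 (class 4) read 6.49, 6.60 and 6.45 in N and 6.59, 6.44 and 6.51 in IPO and also reached 1.34-fold. These 4 were picked for their narrow intervals, which no probe had under 1.33-fold because limma draws each variance towards a common value. Under scaling by the 75th percentile their intervals reached 1.36-fold to 1.43-fold. With all 9 arrays they reached 0.65 to 0.78 on the log2 scale, against 0.42 to 0.44 on the 6 arrays. Without N 2 the interval of ASCRP4012183 reached 0.61.

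The brightest circRNA probes need values free of quantile normalization, because that step sets the top ranks equal on all arrays. ASCRP4006710, the brightest and the probe of class 5 with the narrowest interval, thus had the value 18.1 on every array. Scaled by the 75th percentile instead, it read 18.47, 18.49 and 17.75 in N and 18.01, 17.75 and 17.999 in IPO, a difference of -0.32 with an interval of -0.89 to 0.26. N 3 lay lowest, beside IPO 2. On the same scale ASCRP4006342 differed by -0.19 (-0.69 to 0.31), ASCRP4012684 by -0.12 (-0.61 to 0.37), ASCRP4004008 by -0.27 (-0.72 to 0.18) and ASCRP4013042 by -0.14 (-0.63 to 0.34). All 5 estimates were below 0 on this scale, with intervals that included 0, but at ASCRP4012684 the quantile normalized difference was 0.13. Over the 100 brightest probes by the mean of each group, 87 were shared by both lists.

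The counts of calls depended most on N 3, followed by IPO 1 and IPO 2. Without N 3, 163 of the 11519 probes (1.42%) were higher and 247 (2.14%) lower. The higher probes were 39.8% of these calls, against 76.7% on all arrays, and the lowest adjusted p from limma was 0.103. Without IPO 1 the counts were 84 and 57 (0.729% and 0.495%), and without IPO 2 they were 95 and 24 (0.825% and 0.208%). Without N 1, N 2 or IPO 3 they were 51 and 18, 43 and 11, and 44 and 17, the last being the count within the shared scan. Still no adjusted p fell below 0.05 in any of these 6 fits. Of the 46 higher probes 19 were called each time, among them the 5 named increases, and of the 14 lower probes 1 was, ASCRP4011090. The intervals within 2-fold moved less, from 7198 probes without N 3 to 8083 without IPO 3.

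**Figure D5:**
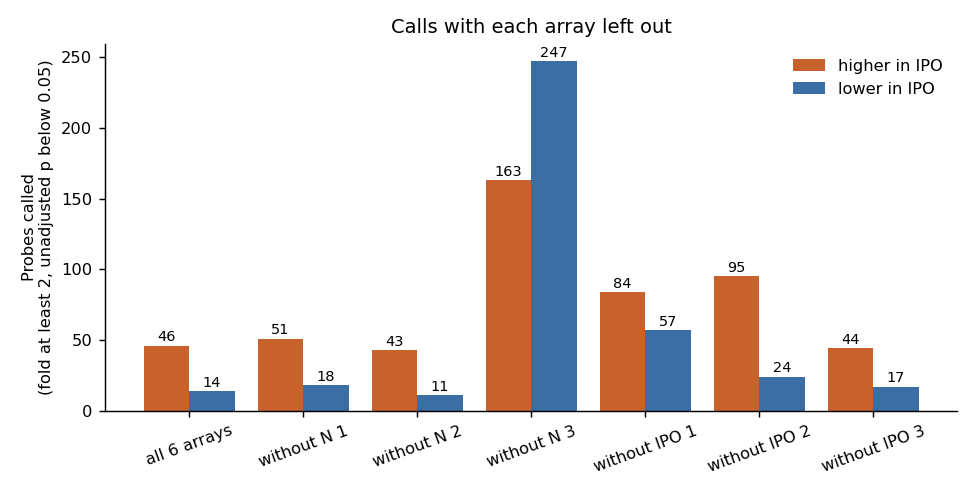
Number of probes called higher and lower in IPO on all 6 arrays and after leaving out each array. The bars rise from 46 and 14 to 163 and 247 of the 11519 probes when N 3 is left out.

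Of the 2717 circRNA probes outside the selection, 1132 were well above background on none of the 6 arrays. The 516 probes that missed it on a single array had a median mean signal of 2.94, at the foot of class 1. Well above background on all 3 arrays of either group and on none of the other were 16 probes for IPO and 19 for N.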

How the data were processed

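The authors deposited, for each 1-colour (Cy3) array, scanner tables from Agilent Feature Extraction 11.0.1.1 that hold intensities after background correction, median raw and local background intensities and flags, with no normalization between arrays. RNA was treated with RNase R before labelling. The methods name quantile normalization in limma and calls at a fold change of at least 2 with p below 0.05.

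The log2 of these deposited intensities at the 15176 non-control spots was quantile normalized over the 6 arrays (R 4.3.3, limma 3.58.1), and N and IPO were fitted with lmFit and eBayes without covariates. Intervals are moderated 95% intervals. No member spot was saturated, and 9 member spots with an outlier flag were kept. The 5 brightest probes, the largest non-overlapping called increase and decrease of each class, and the narrowest interval of each class are named. Members, classes and this rule were chosen with earlier results of these data known. The labels do not say that arrays of a group came from separate mice, though the methods do. The procedure was tested on simulated data with independent noise for each probe and array, which leaves out deviations that the probes of an array share. The number of arrays limits the precision.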

Additional observations from a re-analysis of the deposited data

Results flagged for a closer look

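Outside the probes compared, 16 of the 14236 circRNA probes were well above background on all 3 IPO arrays and on no N array. They are dim, with IPO means of 2.54 to 3.66 on the log2 scale. Because no N value was well above background, a rise has only a lower bound. It was taken against the lowest signal well above background on each N array or the probe's own value where that was higher. The bound was at least 2-fold for 4 of the 16 and had a median of 0.66 on the log2 scale. The highest bounds, chosen after their values were seen, were at ASCRP4010150 (at least 2.48-fold higher), with 4.34, 3.10 and 3.54 in IPO, and ASCRP4001349 (at least 2.46-fold higher), with 2.58, 3.76 and 4.12. In the opposite direction, 19 probes were well above background on all 3 N arrays and on no IPO array, none with a bound of 2-fold. Both sets were chosen by detection in a single group, which favours a higher signal there, and the bounds leave out the error of that group's mean. These probes were outside the main fit, and no separate test was made of them. The alternative with no filter on dim probes had them among its 14236 probes, and no adjusted p from limma was below 0.05 there.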

How the results depend on the processing

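All alternatives were planned, and no called probe named in the report changed sign in any of them. On all arrays 46 probes were higher, 14 lower, 8711 had an interval within 2-fold and 1860 within 1.5-fold, with a median absolute difference of 0.19. The adjusted calls were 0 in every alternative. Counts that moved by more than 1.5 times follow. Where no reason is named, the cause was not tested. Normexp correction (offset 50) gave 7 higher, 2 lower, 9061 within 1.5-fold and a median difference of 0.0818, and the raw signal gave 21, 5, 6935 and 0.13. The raw signal keeps the background, and normexp adds an offset after removing it. Quantile normalization over all 9 arrays with the 3 groups in 1 fit gave 5 lower, 3626 within 2-fold and 3 within 1.5-fold. With no filter on dim probes 126 were higher and 54 lower, and with a filter on at least 3 of the 6 arrays 84 and 28. These settings tested 14236 and 12613 probes. The share called rose as well, from 0.399% to 0.885% and 0.666% for higher probes. For lower probes it rose from 0.122% to 0.379% and 0.222%. The cause of the rise in these shares was not tested. A filter on all 9 arrays left 5272 probes to test, of which 15 were higher (0.285%), 6 lower (0.114%) and 4283 had intervals within 2-fold. That last share was 81.2%, against 75.6% of the 11519 probes, so it rose although the count fell. The methods' t-test without moderation gave 30 higher and 3 lower. Array weights, lowest for IPO 1 and N 3 at 0.619 and 0.624, gave 99 higher and 85 lower. The scan as a block, which is nearly the fit without IPO 3 because that array was scanned alone, left 903 intervals within 1.5-fold. Over the 6 fits that leave out an array, the ranges were 43 to 163 higher, 11 to 247 lower, 7198 to 8083 within 2-fold and 111 to 999 within 1.5-fold, with a median difference of 0.18 to 0.26. The percent called in the dimmest class was 0.564% on all arrays, 0.868% with classes set by the N mean, which places probes low in N there by construction, and 0% for the raw signal.

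Replicate numbers were not used to pair the mice in the main fit. Deviations of same-numbered arrays correlated at 0.16, -0.18 and 0.20. For N and IPO arrays with different numbers they correlated at -0.40 (N 3 and IPO 1) to 0.41 (N 2 and IPO 1). So few arrays in a group cannot show whether mice were paired. With the replicate number as a block, 49 probes were higher, 21 lower and 1159 within 1.5-fold. Setting outlier spots to missing, scaling by the 75th percentile and the intensity trend moved no count by more than 1.5 times.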
